A study of Mus musculus with 8 samples.

Results

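The 31 genes described here encode receptors, subunits of the NADPH oxidase, granule proteins and other products typical of mouse neutrophils, and they were chosen by name, as rows of a table of 19126 genes. For 30 of them the symbol was in the table. BC100530 was found by its gene identifier under the newer symbol Cstdc5. A low-count filter kept 29 of the 31 for testing; Mpo and Elane did not pass it.

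Neutrophils are short-lived white blood cells that leave the bone marrow in response to granulocyte colony-stimulating factor and enter inflamed skin within hours. They sense microbes and damage through surface receptors, make superoxide with the NADPH oxidase, and release proteins stored in granules. Primary granules, with myeloperoxidase and neutrophil elastase, are filled in the marrow, so mature cells in tissue carry little of those transcripts. In contact dermatitis neutrophils are among the earliest cells to enter the challenged ear.

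Left ears were sequenced from C57BL/6 mice, an inbred strain, that were 6 to 8 weeks old. Every mouse was sensitised with 25 µL of 0.3% dinitrofluorobenzene (DNFB), a contact allergen, and from day 6 its left ear was painted with 10 µL of 0.25% DNFB, over 4 days of treatment. The inhibitor group was 4 mice that received MMP-9-IN-1, which blocks matrix metalloproteinase 9, at 10 mg/kg into the peritoneum. The vehicle group was 4 mice given the solvent of 10% DMSO, 40% PEG300 and 50% PBS. Both groups were thus painted with the allergen, and no unpainted ear is part of the comparison. Total reads on genes ran from 13863145 to 18512200 across the 8 libraries, each from 1 mouse. As whole ears, they were rich in keratinocyte transcripts, with a summed level of Krt14, Krt5, Krt10 and Krt1 between 9033 and 24843 in TPM, a level per transcript length scaled to the same total in every library. In bulk tissue, fewer cells of a type and less RNA per cell cannot be told apart.

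Libraries stood apart within both groups, and this bears on every value below. The 31 genes together took 1.84%, 1.92%, 0.744% and 0.945% of all TPM in vehicle mice 1 to 4, and 0.687%, 1.77%, 0.657% and 0.917% in inhibitor mice 1 to 4. Vehicle mice 1 and 2 and inhibitor mouse 2 were thus the high ears and the other 5 the low ones. This sum was weighted towards the stefin A genes, described below, above all in the low ears. They held 6223 of its 7444 TPM in vehicle mouse 3 and 5668 of 6868 TPM in inhibitor mouse 1. BC100530, which is one of them, had 4019 and 3875 TPM there. From highest to lowest ear the sum differed by 2.92-fold, and that of the receptors and surface proteins by 15.7-fold. For 21 of the 29 tested members these 3 libraries had the 3 highest values in CPM, reads scaled by library size, a pattern seen in 13.7% of all 15096 genes tested. The 3 libraries were picked out from these values, so this is a description and not a test.

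Between inhibitor and vehicle ears, 0 of the 29 tested members passed an adjusted p of 0.05 in edgeR's quasi-likelihood test, against 0% of all genes tested. The smallest adjusted p among all genes was 0.999. Without adjustment, 0 members had a p under 0.05, against 1.04% of all genes. DESeq2 and limma-voom with quality weights also called 0 genes. At an unadjusted p under 0.05 DESeq2 had 293 genes with 1 member among them, and limma-voom with quality weights 296 genes with 0 members. Of the 29 members 23 had a lower estimate with the inhibitor, against 45.5% of all genes. Their median log2 fold change, inhibitor minus vehicle, was -0.84, beside 0.026 for all genes. For 0 of the 29 members did the libraries of the groups separate without overlap, against 1.19% of all genes. Without inhibitor mouse 2 the members' median was -1.80, without vehicle mouse 2 it was -0.36, and among mice 3 and 4 alone it was 0.22. Among mice 1 and 2 alone 26 of 30 estimates were lower, and among mice 3 and 4 alone 10 of 29 were. The limma-voom fit with quality weights put 14 lower with a median of 0.028.

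**Figure D1:**
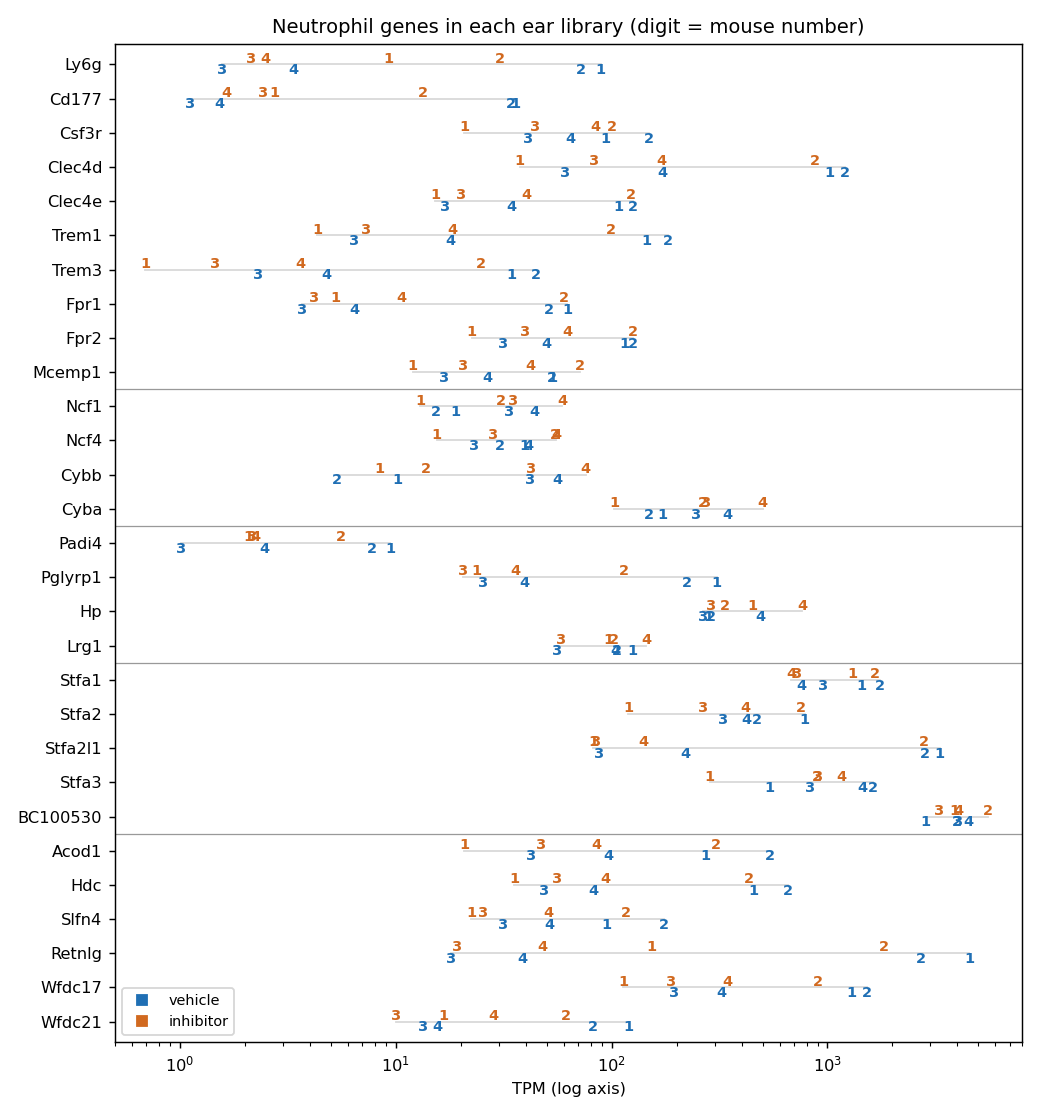
TPM of the 29 tested members (rows, log axis) in each library; a digit is the mouse number, blue for vehicle and orange for inhibitor, and horizontal lines part the role groups. Vehicle mice 1 and 2 and inhibitor mouse 2 lie at the right for the receptors, while Cybb has its lowest values in vehicle mouse 2 and inhibitor mouse 1.

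**Figure D2:**
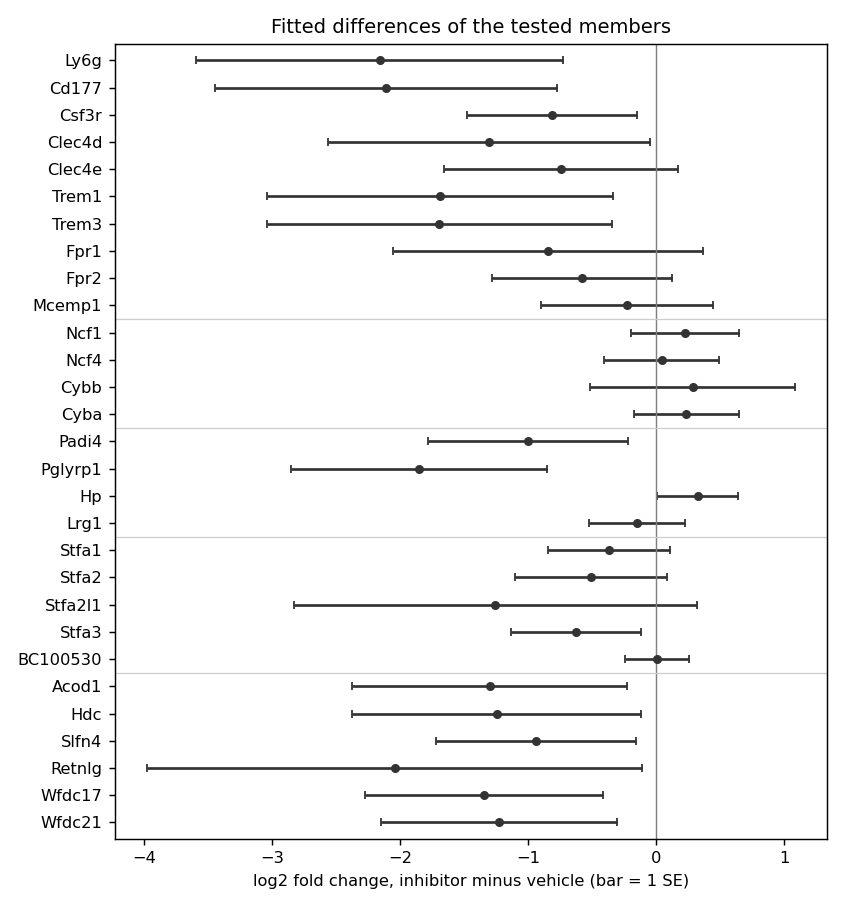
Log2 fold change of the 29 tested members, inhibitor minus vehicle, from edgeR, with bars of 1 standard error and n = 4 per group. The 4 oxidase subunits, Hp and BC100530 lie on the higher side and the other 23 on the lower side, and none passed the adjusted threshold.

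Surface proteins and receptors shared the same 3 high ears. Ly6g, the surface protein by which mouse neutrophils are usually recognised, had 89.0, 72.0, 1.56 and 3.34 TPM in vehicle mice 1 to 4 and 9.27, 30.3, 2.13 and 2.48 TPM in inhibitor mice 1 to 4. Vehicle mice 1 and 2 were highest, inhibitor mouse 2 came next, inhibitor mouse 1 lay between, and both groups' mice 3 and 4 were low. The group means were 41.5 ± 45.6 TPM with vehicle and 11.045 ± 13.3 TPM with the inhibitor (SD, n = 4), and the log2 fold change was -2.16 (SE 1.43). Cd177, another surface protein of neutrophils, had 35.8, 34.2, 1.12 and 1.52 TPM in vehicle mice 1 to 4 and 2.75, 13.3, 2.42 and 1.64 TPM in inhibitor mice 1 to 4. Its estimate was -2.11 (SE 1.34). For Cd177 inhibitor mouse 1 was only slightly above the ears of mice 3 and 4 (2.75 against at most 2.42 TPM). For Ly6g it was further above them (9.27 against at most 3.34 TPM).

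The sequence before the Ly6g start is shown because this gene is the usual marker of mouse neutrophils, that of Retnlg because this member varied most between ears, and that of Cybb because its order of ears was nearly the reverse. Each has 250 bases before and 50 after a RefSeq start, from build GRCm38.p6, which is not the GRCm39 build of the deposited values. Capitals mark matches to GAGGAAGT, a form of the site of the myeloid factor PU.1, or to TTGCNNAA, a form of the site of C/EBP factors, searched on both strands.
Ly6g, chr15:75155011-75155310, plus strand: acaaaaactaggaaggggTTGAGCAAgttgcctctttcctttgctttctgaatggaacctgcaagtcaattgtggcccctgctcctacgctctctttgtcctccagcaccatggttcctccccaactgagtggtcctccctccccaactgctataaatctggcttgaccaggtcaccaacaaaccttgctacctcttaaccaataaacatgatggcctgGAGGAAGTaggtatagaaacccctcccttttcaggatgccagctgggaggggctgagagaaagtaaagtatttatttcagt
Retnlg, chr16:48872358-48872657, plus strand: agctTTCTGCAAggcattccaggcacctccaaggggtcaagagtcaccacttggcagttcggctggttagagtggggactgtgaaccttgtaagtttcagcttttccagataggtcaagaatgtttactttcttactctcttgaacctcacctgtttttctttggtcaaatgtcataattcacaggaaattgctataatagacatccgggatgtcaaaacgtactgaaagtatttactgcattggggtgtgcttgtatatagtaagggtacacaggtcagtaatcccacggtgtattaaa
Cybb, chrX:9469275-9469574, minus strand: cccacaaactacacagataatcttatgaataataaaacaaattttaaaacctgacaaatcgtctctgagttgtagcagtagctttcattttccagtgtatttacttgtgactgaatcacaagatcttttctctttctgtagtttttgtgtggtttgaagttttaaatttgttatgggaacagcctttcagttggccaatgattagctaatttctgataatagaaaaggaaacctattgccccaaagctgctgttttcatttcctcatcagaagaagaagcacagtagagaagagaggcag
Promoter windows were at hand for 27 of the 31 genes. Ly6g has another start, whose window, chr15:75155079-75155378, is not shown and holds 2 matches to GAGGAAGT and 0 to TTGCNNAA. GAGGAAGT was found in 3 of the 27 (Ly6g, Mpo and Elane), against 3.2% of 32851 windows of all genes. TTGCNNAA was found in 5 of the 27 (Ly6g, Retnlg, Clec4e, Stfa1 and BC100530), against 10.8% of all windows. A member was counted if any of its windows matched, while the shares over all genes are of single windows, so the measures are not quite alike. The motifs did not overlap each other in the windows shown, and a match describes letters, not a bound site. Other forms of these sites were not searched for, so a window without capitals, as for Cybb, may still hold one.

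Csf3r, the receptor for granulocyte colony-stimulating factor, had 93.9, 149, 41.2 and 64.2 TPM in vehicle mice 1 to 4 and 20.8, 100.3, 44.0 and 84.0 TPM in inhibitor mice 1 to 4. Here inhibitor mouse 1 was the lowest ear of all, and inhibitor mouse 4 was close to vehicle mouse 1. The log2 fold change was -0.81 (SE 0.66). Clec4d, a C-type lectin receptor for microbial glycolipids, was the most abundant receptor of the set, with 1022, 1207, 60.8 and 172 TPM in vehicle mice 1 to 4 and 37.5, 876, 83.1 and 171 TPM in inhibitor mice 1 to 4. The means were 615 ± 583 TPM with vehicle and 292 ± 393 TPM with the inhibitor (SD, n = 4), with a log2 fold change of -1.30 (SE 1.26). Inhibitor mouse 2 alone set most of the inhibitor mean. Clec4e, the partner lectin also called Mincle, ranged from 15.3 to 125 TPM.

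Trem1 and Trem3, receptors that amplify inflammatory signals, ranged from 4.34 to 182 TPM and from 0.690 to 44.7 TPM, lowest in inhibitor mouse 1 and highest in vehicle mouse 2. Of the formyl peptide receptors, which guide neutrophils towards bacterial peptides, Fpr2 had 115, 126, 31.6 and 49.9 TPM in vehicle mice 1 to 4 and 22.5, 126, 39.7 and 62.1 TPM in inhibitor mice 1 to 4. For Fpr2 the ear of inhibitor mouse 2 was level with vehicle mouse 2, and the estimate was -0.58 (SE 0.70). Of the 50-base windows of Fpr2 transcripts 31.5% also occur in transcripts of Gm5966, Fpr3 or Fpr1, so its values are uncertain. Fpr1 ranged from 3.69 to 62.3 TPM. Mcemp1, a membrane protein of myeloid and mast cells, had 53.0, 52.7, 16.7 and 26.7 TPM in vehicle mice 1 to 4 and 12.0, 71.4, 20.6 and 41.8 TPM in inhibitor mice 1 to 4. Its highest ear was inhibitor mouse 2, and its estimate of -0.23 (SE 0.67) was the smallest of the receptors. All 10 receptors and surface proteins had a lower estimate, between -2.16 and -0.23, and for all 10 the 3 highest ears were vehicle mice 1 and 2 and inhibitor mouse 2. Inhibitor mouse 1 was the lowest ear for 7 of the 10. With limma-voom quality weights 7 of the 10 estimates were on the higher side, among them Ly6g (0.23), Clec4d (0.059), Fpr2 (0.21) and Mcemp1 (0.31). Among mice 3 and 4 alone 8 of the 10 were, all but Ly6g and Trem3. Among mice 1 and 2 alone all 10 were on the lower side, with Ly6g at -2.25 and Clec4d at -1.49. Without inhibitor mouse 2 the estimates of Ly6g and Clec4d were -3.60 and -3.09; leaving out vehicle mouse 1 gave -1.55 for Ly6g, and leaving out vehicle mouse 2 gave -0.64 for Clec4d.

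The oxidase subunits had another order of ears. Cybb, the catalytic subunit of the NADPH oxidase in the membrane, had 10.2, 5.35, 41.8 and 56.3 TPM in vehicle mice 1 to 4 and 8.36, 13.8, 42.5 and 75.7 TPM in inhibitor mice 1 to 4. Its lowest ears were vehicle mice 2 and 1 and inhibitor mouse 1, and its highest were those of mice 3 and 4 in both groups. The means were 28.4 ± 24.6 TPM with vehicle and 35.1 ± 31.0 TPM with the inhibitor (SD, n = 4), with a log2 fold change of 0.29 (SE 0.80). Cyba, the membrane partner that stabilises the catalytic subunit, had 172, 148, 246 and 342 TPM in vehicle mice 1 to 4 and 103, 266, 274 and 500.3 TPM in inhibitor mice 1 to 4. Its estimate was 0.24 (SE 0.41), and inhibitor mouse 4 was its highest ear and inhibitor mouse 1 its lowest.

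Among the cytosolic subunits, Ncf4, which binds membrane lipids when the oxidase assembles, had 39.5, 30.4, 23.1 and 41.2 TPM in vehicle mice 1 to 4 and 15.4, 54.8, 28.3 and 55.4 TPM in inhibitor mice 1 to 4. The groups overlapped throughout, and the log2 fold change was 0.043 (SE 0.45). Ncf1, the organiser of the assembly, ranged from 13.0 TPM in inhibitor mouse 1 to 59.1 TPM in inhibitor mouse 4. All 4 subunits had a higher estimate, between 0.043 and 0.29, with unadjusted p from 0.580 to 0.926 in edgeR. Ncf4 was on the lower side with the replicate block (-0.063) and Cybb with limma-voom quality weights (-0.15). Leaving out inhibitor mouse 4 put all 4 on the lower side, with Cybb at -0.38, Cyba and Ncf4 at -0.13 and Ncf1 at -0.12. For 0 of the 4 were vehicle mice 1 and 2 and inhibitor mouse 2 the 3 highest ears, and inhibitor mouse 4 was the highest ear for all 4.

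Macrophages also express the oxidase. The summed level of 10 macrophage markers was 259, 273, 1094 and 1724 TPM in vehicle mice 1 to 4 and 345, 851, 1163 and 2479.5 TPM in inhibitor mice 1 to 4, lowest in the 3 ears where Cybb was lowest, and it was not tested how much of the Cybb difference between ears goes with it. Of the 10 macrophage markers 9 had a higher estimate with the inhibitor and 0 passed the threshold.

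**Figure D3:**
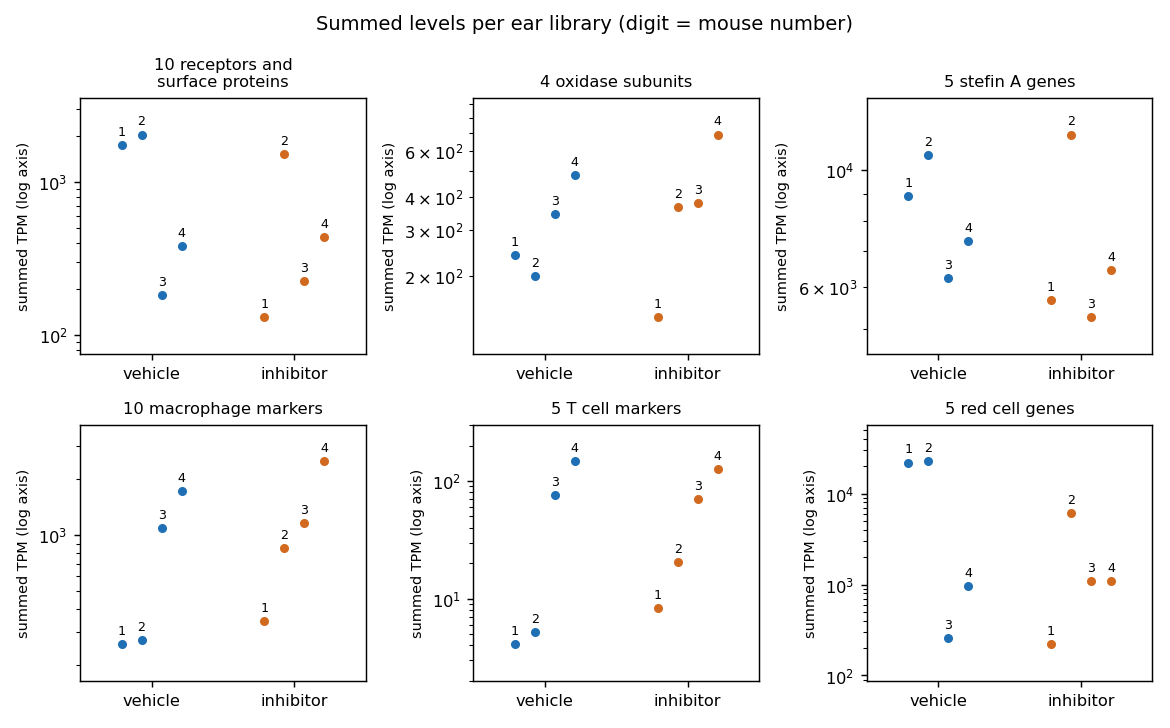
Summed TPM of 3 role groups and of 3 marker lists of other cells (log axes that differ between panels) in each library, with the mouse number above each point. The receptors are high in vehicle mice 1 and 2 and inhibitor mouse 2, where the red cell genes are high. The T cell markers are low in the ears of mice 1 and 2 of both groups, also in inhibitor mouse 1, where the receptors are lowest. The oxidase subunits are highest in inhibitor mouse 4.

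Granule and trap proteins were mixed. Mpo, myeloperoxidase of the primary granule, had 13, 20, 0 and 0 reads in vehicle mice 1 to 4 and 1, 11, 1 and 1 in inhibitor mice 1 to 4. Elane, neutrophil elastase of the same granule, had 1, 0, 0 and 0 reads in the vehicle ears and 1, 0, 1 and 1 in the inhibitor ears. At this depth a count of 0 allows up to 3 reads, or between 0.162 and 0.216 CPM, counting error only, so differences in Elane were not detectable. Most reads of Mpo came from the same 3 ears as those of the receptors.

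Pglyrp1, a peptidoglycan-binding protein of neutrophil granules, had 306, 224, 25.2 and 39.2 TPM in vehicle mice 1 to 4 and 23.6, 114, 20.5 and 35.7 TPM in inhibitor mice 1 to 4. The means were 149 ± 139 TPM with vehicle and 48.6 ± 44.4 TPM with the inhibitor (SD, n = 4), with a log2 fold change of -1.85 (SE 1.00). Its unadjusted p of 0.10 in edgeR was the smallest of the 29 members, and in DESeq2 its unadjusted p was 0.0384 with an adjusted p of 0.9999. Its inhibitor ear was the lower one in all 4 same-number pairs, but inhibitor mouse 2 lay above vehicle mice 3 and 4, so the groups overlapped. Padi4, the enzyme that citrullinates histones when neutrophils cast chromatin traps, ranged from 1.01 to 9.40 TPM with an estimate of -1.002 (SE 0.78).

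Hp and Lrg1 did not follow the receptors. Hp, which encodes the haemoglobin-binding protein haptoglobin and is also made by liver and fat, had 282, 289.6, 265 and 489.9 TPM in vehicle mice 1 to 4 and 447, 336, 289 and 762 TPM in inhibitor mice 1 to 4. Inhibitor mouse 4 was highest, and its estimate of 0.32 (SE 0.32) was the highest of the 29. Without that ear it was 0.00045. The summed level of 3 adipocyte markers was 47.5, 37.7, 82.0 and 172 TPM in vehicle mice 1 to 4 and 89.2, 53.7, 160.0 and 268 TPM in inhibitor mice 1 to 4, also highest in inhibitor mouse 4, and its part in the Hp values was not tested. Lrg1, a secreted leucine-rich glycoprotein of neutrophils and endothelium, had 125, 106, 55.8 and 104 TPM in vehicle mice 1 to 4 and 97.0, 103, 58.6 and 145 TPM in inhibitor mice 1 to 4. The groups overlapped, and the log2 fold change was -0.15 (SE 0.38), which turned to 0.031 on TPM values with limma-trend. Between the highest and lowest ear Hp differed by 2.88-fold and Lrg1 by 2.59-fold, while Ly6g differed by 57.1-fold.

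The stefin A genes encode small inhibitors of cysteine proteases and lie in a cluster of closely related copies on chromosome 16. Their coding starts are shown because the reads of 50 bases must tell these copies apart. Below are the first 120 coding bases of each from GENCODE release M21, also of build GRCm38, with capitals for bases that differ at the same position from Stfa1 (in BC100530) or from Stfa2 (in Stfa2l1 and Stfa3).
Stfa1: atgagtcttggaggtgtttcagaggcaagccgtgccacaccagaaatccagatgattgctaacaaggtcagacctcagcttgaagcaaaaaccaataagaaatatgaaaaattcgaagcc
BC100530: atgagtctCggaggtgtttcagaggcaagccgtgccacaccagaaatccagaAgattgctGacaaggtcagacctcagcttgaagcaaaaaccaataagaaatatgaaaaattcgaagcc
Stfa2: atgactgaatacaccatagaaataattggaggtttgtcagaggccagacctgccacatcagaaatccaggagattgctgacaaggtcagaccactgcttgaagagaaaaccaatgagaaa
Stfa2l1: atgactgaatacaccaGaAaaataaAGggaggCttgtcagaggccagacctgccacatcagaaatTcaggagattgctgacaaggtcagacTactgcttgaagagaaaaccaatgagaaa
Stfa3: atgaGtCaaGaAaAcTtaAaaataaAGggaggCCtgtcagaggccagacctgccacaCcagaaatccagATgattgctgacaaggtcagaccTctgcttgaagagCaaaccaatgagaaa
BC100530 differed from Stfa1 at 3 of these bases, and over the aligned coding sequence they were 97.9% identical. Stfa2l1 differed from Stfa2 at 7 bases and Stfa3 at 16, with 96.4% and 80.9% identity over the coding sequence. Of all 50-base windows of the BC100530 transcripts, 48.9% also occurred in a transcript of another gene, as did 24.6% for Stfa2l1, 22.5% for Stfa1 and 15.9% for Stfa2, and 0% for Stfa3. The sources used here do not say how the authors' counting divided such reads, so the values of these copies other than Stfa3 are uncertain.

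**Figure D4:**
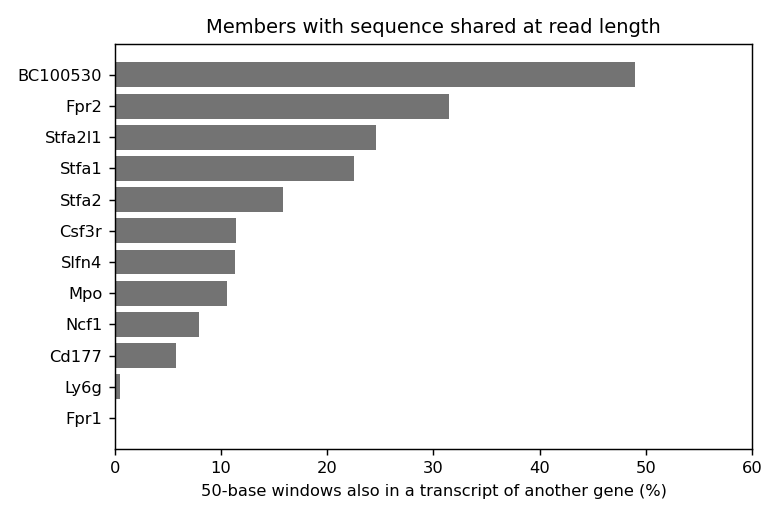
Percent of the 50-base windows of a member's protein-coding transcripts that also occur, on either strand, in a transcript of another gene, for the 12 members above 0%. BC100530, Fpr2, Stfa2l1 and Stfa1 have the largest shares, and the other 19 members share none.

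Within this family the copies differed in how much they varied between ears. Stfa2l1 had 3305, 2826, 87.5 and 218 TPM in vehicle mice 1 to 4 and 82.2, 2792, 84.8 and 140.0 TPM in inhibitor mice 1 to 4. It spanned 40.2-fold, with inhibitor mouse 2 level with the vehicle high ears and the other 5 ears far below, and its log2 fold change was -1.26 (SE 1.57). It was -4.40 without inhibitor mouse 2 and -0.71 without vehicle mouse 1. Stfa2, its closest relative, ranged from 119.7 to 784 TPM. The ratio of Stfa2l1 to Stfa2 in TPM, chosen after the values were seen, was 4.22, 5.99, 0.267 and 0.520 in vehicle mice 1 to 4 and 0.687, 3.69, 0.320 and 0.338 in inhibitor mice 1 to 4. It was above 3 in the 3 high ears and below 1 in the other 5.

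BC100530 was the most abundant of the 31 genes and the steadiest, with 2847, 3960.4, 4019 and 4502 TPM in vehicle mice 1 to 4 and 3875, 5561, 3277 and 4054 TPM in inhibitor mice 1 to 4. It spanned 1.95-fold, and its estimate was 0.009 (SE 0.25), which was on the lower side with DESeq2 size factors (-0.016) and the replicate block (-0.018). Stfa1 had 1440.3, 1754, 956 and 755 TPM in vehicle mice 1 to 4 and 1307, 1653, 719.5 and 677 TPM in inhibitor mice 1 to 4. Its log2 fold change was -0.37 (SE 0.48), and the inhibitor ear was the lower one in all 4 same-number pairs. Its estimate was -0.023 without vehicle mouse 2 and -0.75 without inhibitor mouse 2. With the mouse number as a block its estimate was -0.34 (SE 0.11), with an edgeR unadjusted p of 0.0238 and an adjusted p of 0.717, where 4.8% of all genes had an unadjusted p under 0.05. Stfa3 ranged from 284 TPM in inhibitor mouse 1 to 1629 TPM in vehicle mouse 2, and its ears of mice 3 and 4 were not low. Stefin A genes are also expressed in epidermis, and the summed level of 5 stressed-keratinocyte markers was 4284, 6433, 3268 and 2018 TPM in vehicle mice 1 to 4 and 2562, 2447, 2928 and 1868 TPM in inhibitor mice 1 to 4; its part in the stefin values was not tested.

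The other enzymes and secreted products followed the receptors. Retnlg, a resistin-like hormone made by neutrophils, had 4539.9, 2718, 18.1 and 38.5 TPM in vehicle mice 1 to 4 and 152, 1825, 19.3 and 47.7 TPM in inhibitor mice 1 to 4. It spanned 251-fold, the most of the 29 tested members, and inhibitor mouse 1 again lay between the 3 high ears and those of mice 3 and 4. The means were 1829 ± 2208 TPM with vehicle and 511 ± 878 TPM with the inhibitor (SD, n = 4), and the log2 fold change was -2.04 (SE 1.93). It was -5.06 without inhibitor mouse 2 and -1.18 without vehicle mouse 1. Wfdc17, a secreted whey acidic protein that restrains inflammation, had 1286, 1524, 194 and 323 TPM in vehicle mice 1 to 4 and 113, 900.2, 188 and 344 TPM in inhibitor mice 1 to 4, with an estimate of -1.34 (SE 0.93). Wfdc21, a relative, ranged from 10.0 to 119.5 TPM.

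Hdc, the enzyme that makes histamine in neutrophils, basophils and mast cells, had 455, 653, 48.5 and 82.2 TPM in vehicle mice 1 to 4 and 35.4, 432, 55.9 and 93.8 TPM in inhibitor mice 1 to 4. Its log2 fold change was -1.25 (SE 1.13). The summed level of 7 mast cell markers was 72.1, 171, 467 and 571 TPM in vehicle mice 1 to 4 and 79.4, 179, 444 and 637 TPM in inhibitor mice 1 to 4, low in the ears of mice 1 and 2 of both groups, and its part in the Hdc values was not tested. Slfn4, a schlafen protein of myeloid cells, had 94.1, 175, 31.5 and 51.6 TPM in vehicle mice 1 to 4 and 22.4, 117, 25.3 and 51.2 TPM in inhibitor mice 1 to 4, with an estimate of -0.94 (SE 0.78). Acod1, the enzyme that makes itaconate in activated myeloid cells, ranged from 20.8 to 538 TPM with an estimate of -1.30 (SE 1.07). All 6 genes of this group had a lower estimate, between -2.04 and -0.94, and for all 6 the 3 highest ears were vehicle mice 1 and 2 and inhibitor mouse 2. With limma-voom quality weights Hdc (0.092) and Retnlg (0.42) were on the higher side. Among mice 3 and 4 alone Hdc (0.19), Retnlg (0.23), Wfdc17 (0.036) and Wfdc21 were. Among mice 1 and 2 alone all 6 were on the lower side. Without vehicle mouse 2 the estimates of Hdc and Slfn4 were -0.46 and -0.20, and without inhibitor mouse 2 they were -2.76 and -1.80.

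Set side by side by mouse number, the difference was largest between the ears numbered 1. The ears of a pair come from separate mice, and the labels do not say what a shared number means. In correlation of deviations from the group means, vehicle mouse 1 was closer to inhibitor mouse 2 (0.554) than to inhibitor mouse 1 (0.397). In the pair numbered 1, 27 of the 29 members were lower in the inhibitor ear, with a median log2 ratio of CPM of -3.03. In the pair numbered 2 there were 22 lower, with a median of -0.70. Pair 3 had 9 lower and a median of 0.15, and pair 4 had 10 lower and a median of 0.21. Over all genes with reads in both ears, the median lay between 0.0097 and 0.037 in the 4 pairs, and between 44.0% and 49.3% of genes were lower. Trem3, Pglyrp1, Stfa1 and Stfa2l1 were lower in the inhibitor ear of all 4 pairs, and 0 members were higher in all 4. For Stfa2l1 the ratio in pair 3 was only -0.012. The share of all genes lower in all 4 pairs was not counted, so these names are a description only. The receptors ran from -5.89 to -2.46 in pair 1 and from -0.45 to 0.75 in pair 4. The oxidase subunits were lower in the inhibitor ear of pair 1 only, from -1.69 to -0.60, and higher in the other 3 pairs.

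**Figure D5:**
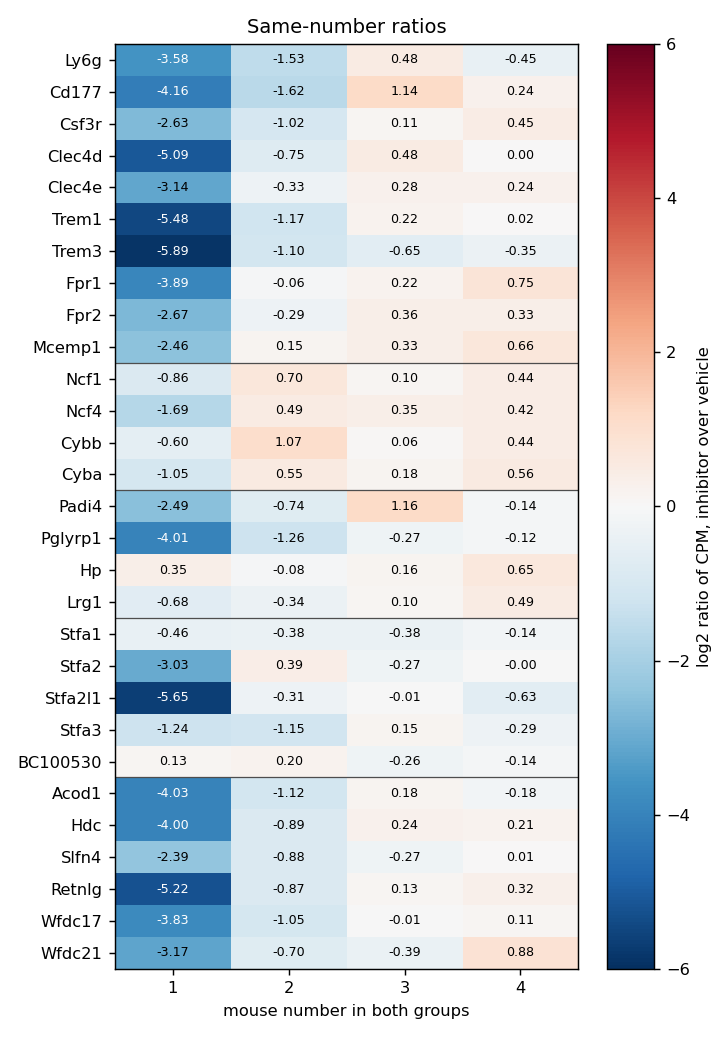
Log2 ratio of CPM, inhibitor over vehicle, for each tested member (rows) in the 4 pairs of ears with the same mouse number (columns). Blue, lower with the inhibitor, marks all 10 receptors in pair 1 and 9 of the 10 in pair 2, and all 6 other enzymes and secreted products in both, while pairs 3 and 4 are pale for most members.

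Outside the 31, 36 other genes linked to neutrophils were listed. They include cytokines and chemokines that act on neutrophils (Csf3, Cxcl1, Cxcl2, Cxcl3 and Cxcl5) and genes shared with other myeloid cells, such as Cd14 and Lyz2. Of the 36, 33 were tested, 30 had a lower estimate and 0 passed the threshold. Their median log2 fold change was -0.81, beside -0.84 for the members, and it does not describe neutrophil transcripts alone. The 4 with the smallest p were Mmp9, the gelatinase gene itself, with -1.76 (SE 1.23), Ltf (lactoferrin) with -1.21 (SE 0.93), Camp (cathelicidin) with -1.43 (SE 1.09) and S100a8 (a subunit of calprotectin) with -1.12 (SE 0.88). Ltf and Camp had few reads, from 4 to 55 and from 1 to 54 per library. Mmp9 had 108, 98.3, 4.51 and 9.41 TPM in vehicle mice 1 to 4 and 5.40, 52.8, 6.47 and 11.8 TPM in inhibitor mice 1 to 4, the same 3 high ears as the receptors.

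Markers of other blood cells differed between the same ears. The 5 red cell genes summed to 21907, 22507, 259 and 952 TPM in vehicle mice 1 to 4 and 220.0, 6036, 1082 and 1079 TPM in inhibitor mice 1 to 4, high in the 3 ears with high Ly6g. The 5 T cell markers summed to 4.09, 5.20, 76.4 and 147 TPM in vehicle mice 1 to 4 and 8.38, 20.6, 69.9 and 126 TPM in inhibitor mice 1 to 4, low in the ears of mice 1 and 2 of both groups. The 6 dendritic cell markers summed to between 5.26 and 37.5 TPM. The 6 eosinophil and basophil markers reached at most 25.6 TPM in sum, with Siglecf, Prg2 and Epx at 0 in some libraries, and the 3 B cell markers at most 2.28 TPM. Of the red cell genes all 5 had a lower estimate, of the T cell markers 4 of 5, of the dendritic cell markers 3 of 6 and of the mast cell markers 2 of 7, with 0 past the threshold. Over all genes tested 45.5% had a lower estimate. The red cell estimates ran from -2.82 to -2.48, below the lowest of the members (-2.16), while the T cell estimates ran only from -0.17 to 0.18. Skeletal muscle and endothelial markers summed to between 185 and 1972 TPM and between 48.3 and 116 TPM, muscle being lowest in vehicle mouse 2 and inhibitor mouse 2. The part of blood and tissue composition in the members' values was not tested.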

How the data were processed

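Poly(A) RNA of 8 ears was sequenced as single-end reads of 50 bases, per the labels' protocols. The submitters' processing notes name HISAT and GRCm39, and for counting and annotation no tool is given in the sources used here. Deposited by the authors were expected counts, TPM (scaled to gene length and a fixed total) and FPKM per library. The deposited FPKM values entered no test, and 6 columns of group means were not used. Between 33.7% and 35.3% of the deposited counts in a library were not whole within 1e-09; all were rounded.

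Genes were filtered with filterByExpr (15096 kept), scaled with TMM and tested with edgeR 4.0.16 (quasi-likelihood, Benjamini-Hochberg over all genes, threshold 0.05) in R 4.3.3. Same-number ratios use TMM-scaled CPM; levels use TPM. Role groups, lists, alternatives (DESeq2 1.42.0, limma 3.58.1, the block, left-out libraries) and the naming rule were chosen with earlier results of these data known. The rule named Ly6g, Mpo and Elane. In each role group it named the 3 members with the highest mean TPM and those with the largest and smallest absolute log2 fold change. It also took the 4 genes with the smallest p from the other genes linked to neutrophils. Trac, of the T cell list, was not analysed here.

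Chi-square per degree of freedom between libraries of a group was 22.8 to 289, so all 8 counted as separate. The labels give each a mouse number. Same-number libraries deviated together, with correlations of deviations from the group means of 0.397, 0.710, 0.673 and 0.682 for mice 1 to 4. The same-number pairs and the replicate block use the numbers in the labels, which do not say what mice of a number share. Some libraries were closer to another number: vehicle mouse 1 to inhibitor mouse 2 (0.554), and vehicle mouse 4 and inhibitor mouse 3 to each other (0.685). Every correlation between a library of mice 1 and 2 and one of mice 3 and 4 was below 0. Deviations from a group mean sum to 0 for every gene, so correlations above 0 with some libraries force others below 0. On simulated counts for these 15096 genes edgeR found 2% of the genes set to differ by 1.5-fold and 12% of those set to 2-fold. It found 72% of those set to 4-fold and all 100% of those set to 8-fold, and made 3 false calls. The simulated spread followed the trend over all genes. In the real data the median SE over all genes was 0.259, while it was 1.43 for Ly6g and 1.93 for Retnlg. The shares thus do not say how often a change in such members would be found. Use of strand in counting is not given, so antisense reads cannot be told apart.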

Additional observations from a re-analysis of the deposited data

Results flagged for a closer look

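Each of the 31 genes was examined in each group of 4 ears, 62 groups in all, for a library whose gap to its nearest neighbour passed Dixon's critical value for 4 values in TPM, which chance gives in about 1 of 20 unrelated groups. In 13 groups a library stood out in this way, but these genes vary together across the same 8 ears, so that rate is no yardstick for the 13. In 11 of them it was inhibitor mouse 2, above the other 3 inhibitor ears: Cd177 at 13.3 TPM, Clec4d at 876 TPM, Trem1 at 99.1 TPM, Trem3 at 24.8 TPM, Fpr1 at 59.8 TPM, Mpo at 0.400 TPM, Padi4 at 5.55 TPM, Pglyrp1 at 114 TPM, Stfa2l1 at 2792 TPM, Hdc at 432 TPM and Retnlg at 1825 TPM. In the vehicle group, Hp stood out in vehicle mouse 4 at 489.9 TPM. Elane stood out in vehicle mouse 1 at 0.10 TPM, which is 1 read beside 0 in the other 3 ears, so that any read would stand out.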

How the results depend on the processing

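The count of 0 called genes and 0 called members held in every alternative run, also at an adjusted p of 0.1. The count of lower members was 23 of 29. It was 23 to 25 of 29 with other scalings, DESeq2 and the replicate block, 22 of 29 with limma-trend, 24 of 31 without a filter, 21 of 27 with at least 1 CPM in every library and 26 of 30 among mice 1 and 2. It was 14 of 29 with limma-voom quality weights and 10 of 29 among mice 3 and 4. With each library left out in turn it ran from 23 of 30 to 28 of 30, and the median from -1.80 to -0.36. Under total counts the median of all genes was 0.12 with 29.5% of them lower, and on log2(TPM + 1) it was 0.15 with 24.2% lower, so small estimates are to be read against those shifts. Sign changes are given by value for the members named by the rule. With DESeq2 size factors, and with DESeq2, the estimate turned in sign for BC100530 (-0.016 in both). With limma-voom quality weights 11 members turned to higher and 2 to lower, among them Ly6g (0.23), Clec4d (0.059), Fpr2 (0.21), Mcemp1 (0.31), Cybb (-0.15), Lrg1 (0.041), BC100530 (-0.10), Hdc (0.092) and Retnlg (0.42). With limma-trend on log2(TPM + 1) and log2(TPM + 0.1) it turned for Lrg1 (0.031 in both). With the replicate block the sign turned for Ncf4 (-0.063) and BC100530 (-0.018). Among mice 1 and 2 alone the sign turned for Ncf4 (-0.25) and Cyba (-0.041). Among mice 3 and 4 alone 14 turned to higher and 1 to lower, among them Csf3r (0.29), Clec4d (0.12), Fpr2 (0.32), Mcemp1 (0.52), Lrg1 (0.33), BC100530 (-0.22), Hdc (0.19), Retnlg (0.23) and Wfdc17 (0.036). With each library left out, signs turned for estimates that ranged, for Lrg1, from -0.38 to 0.052, BC100530 from -0.25 to 0.14, Mcemp1 from -0.92 to 0.094, Cybb from -0.38 to 0.80, Ncf4 from -0.29 to 0.32 and Cyba from -0.13 to 0.52. The replicate block changed no call, and for the members its median was -0.63. The cause of these changes was not tested; none of these estimates passed the threshold. Low counts kept Mpo and Elane out of the test, and at 1 CPM in every library Ly6g and Trem3 drop out too, with 15 reads for Ly6g in vehicle mouse 3 and 6 for Trem3 in inhibitor mouse 1.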

Other observations

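The ear of inhibitor mouse 1 did not place alike for all neutrophil genes. For Clec4d, Trem1, Trem3, Csf3r and Acod1 it was the lowest of the 8 ears, while Ly6g and Retnlg in it were above the ears of mice 3 and 4. The ratio of Ly6g to Csf3r in TPM was 0.948, 0.482, 0.0379 and 0.0520 in vehicle mice 1 to 4 and 0.447, 0.302, 0.0484 and 0.0295 in inhibitor mice 1 to 4. Ngp, a protein of secondary granules, had 219, 95.5, 0.480 and 0.630 TPM in vehicle mice 1 to 4 and 16.6, 51.8, 0.230 and 1.18 TPM in inhibitor mice 1 to 4, and Lcn2, a siderophore-binding protein of neutrophils and stressed epithelium, had 2665, 2718, 435 and 354 TPM in vehicle mice 1 to 4 and 3226, 2102, 297 and 486 TPM in inhibitor mice 1 to 4, with inhibitor mouse 1 the highest ear of all. These genes were chosen after their values were seen, and no difference was tested.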
